A study of Sus scrofa with 16 samples.

Results

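The genes described here drive or accompany cell division: the cyclins, kinases and inhibitors that control entry into S phase, the enzymes that license and copy DNA, the regulators of mitosis and its checkpoint, and the proteins of the kinetochore, spindle and chromosomes. A list of 59 such genes was taken, and a gene counted as measured where the platform annotation gave it as the only symbol of a probe set. By this rule 36 of the 59 genes were measured, out of 6765 genes on the array, and where a gene had several probe sets the one with the highest mean signal was used. The measured genes comprised 7 of 16 for G1 and S phase control, 9 of 14 for replication licensing and DNA synthesis, 14 of 18 mitotic regulators and checkpoint genes, and 6 of 11 for kinetochore, spindle and chromosomes. The 23 genes not analysed here included MKI67, CDK1, CCND1, RB1, E2F1, BUB1 and TTK.

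RNA came from the left ventricle of crossbred swine (Yorkshire x Landrace) aged 2 to 3 months, taken 3 weeks after an operation. The operation was a myocardial infarction (MI) in 8 animals, and a sham procedure in 8 animals (Sham). Each group held 4 animals labelled female and 4 labelled male, and the males in both groups were neutered. The labels describe separate animals, 1 array each, and do not say how far the sampled muscle lay from the infarct.

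Heart muscle cells of adult mammals rarely divide, whereas fibroblasts, endothelial cells and immune cells of the heart can re-enter the cycle after injury. Which cells of these young pigs held the cell cycle RNA was not measured. In G1, D-type cyclins with their kinases release E2F factors, which switch on the genes for DNA synthesis. Cyclin B with CDK1 then starts mitosis, the Aurora and Polo-like kinases build the spindle, and the checkpoint holds the chromosomes until all are attached. In RNA of whole tissue, more cells in the cycle and more cycle RNA per cell cannot be told apart.

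Values are log2 signals as the authors deposited them, and a difference is MI minus Sham on that scale. On the array 23 control probe sets have no matching RNA in pig tissue (the no-target controls), and their single values ran from 3.08 to 4.99. In all, 29 of the 36 genes were above 4.99 in all 16 animals, and 33 had a mean above it in at least 1 group. The 3 genes with no group mean above 4.99 were MCM3, CDC25C and CCNA2. Spike-in controls separated the arrays into set A (MI 1 to MI 6 and Sham 1 to Sham 5, 11 arrays) and set B (MI 7, MI 8, Sham 6, Sham 7 and Sham 8, 5 arrays), which the labels do not mention. MI 7 is labelled female, but its signal of the chromosome Y gene EIF1AY was 9.51, against 9.40 to 9.96 in the 8 animals labelled male and 3.00 to 3.51 in the other 7 labelled female. Results are therefore given with and without MI 7.

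Few cell cycle genes differed between the groups. MCM3 and CDC25C were higher in MI animals, and both had group means within the range of the no-target controls. With limma and Benjamini-Hochberg adjustment over 23999 probe sets (adjusted p under 0.05, called passing below), 2 of the 36 genes passed, both higher in MI, which is 5.56%. Of all 6765 genes 7.63% passed, and 4.12% passed as higher. At an unadjusted p under 0.05 the count was 5 of 36, against 18.1% of all genes. The share called in either direction was thus no higher than the background, and the share called as higher (5.56%, 2 genes) was slightly above 4.12%. In 0 of the 36 did the groups fail to overlap (1.83% of all genes).

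The signs of the differences leaned to MI: 31 of the 36 genes had a higher mean in MI than in Sham animals, against 51.3% of all genes. Their median difference was 0.16, against 0.0048 over all genes. By role the median was 0.09 for G1 and S phase control (5 of 7 higher), 0.11 for replication (7 of 9), 0.29 for mitotic regulators (13 of 14) and 0.20 for kinetochore, spindle and chromosomes (6 of 6). Without MI 7 the median over the 36 genes was 0.23, and by role it was 0.12, 0.18, 0.33 and 0.32 in the same order. The roles were not tested against each other. These genes moved together from animal to animal, so their signs are not independent of each other.

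**Figure D1:**
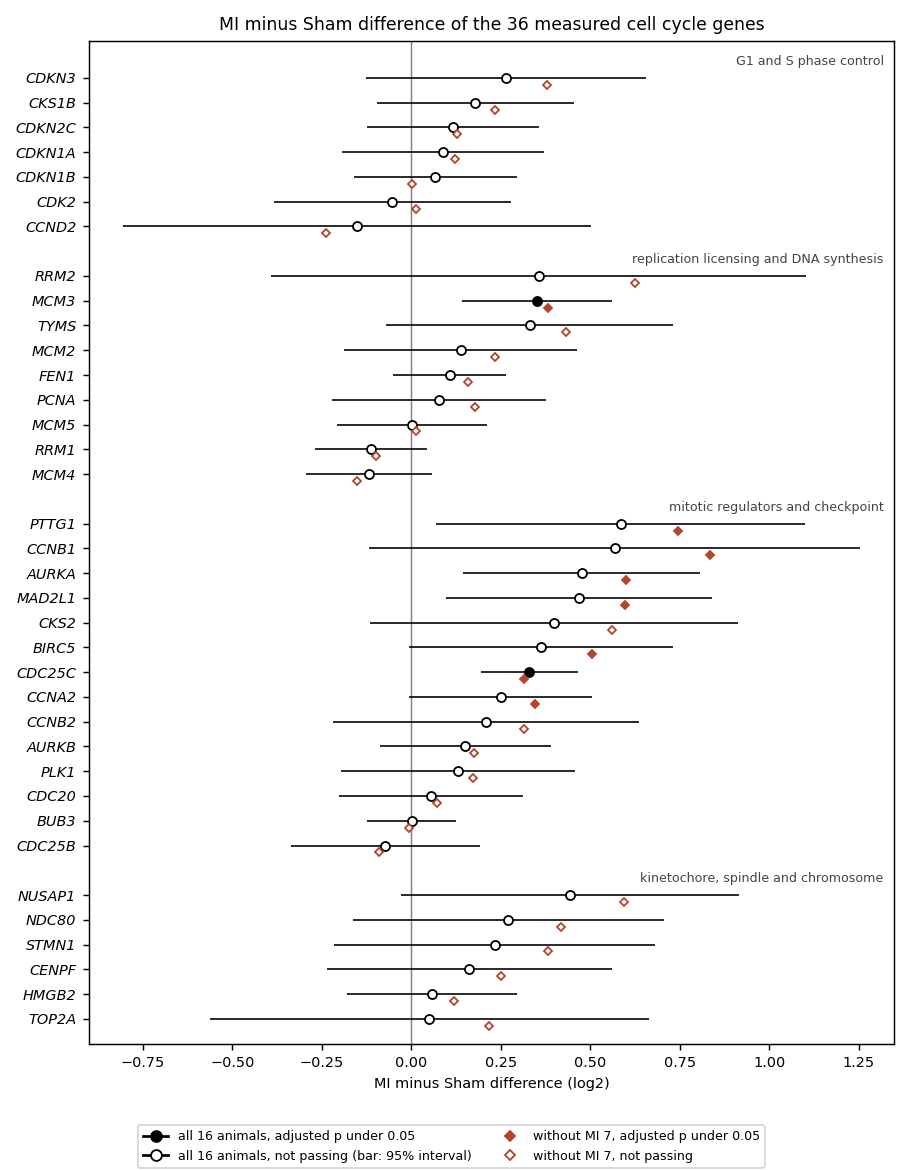
MI minus Sham differences (log2 signal, x axis) of the 36 measured cell cycle genes, grouped by role. Circles with 95% intervals use all 16 animals and diamonds leave out MI 7; filled symbols passed. With all animals 2 circles are filled (MCM3 and CDC25C), and without MI 7 there are 8 filled diamonds, 7 of them among the mitotic regulators.

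None of the genes of G1 and S phase control passed. CCND2, cyclin D2, which partners the G1 kinases, had log2 signals of 9.12 (lowest), 9.88 (median) and 10.8 (highest) in MI animals, against 9.26, 10.2 and 11.4 in Sham animals, an order kept for the genes below. The ranges overlapped and the highest signal of all was that of Sham 7. Its difference was -0.15 (SE 0.31, adjusted p = 0.828), and -0.24 without MI 7. CDKN1A, the p53-induced inhibitor of cyclin-dependent kinases, had 8.98, 9.33 and 9.80 in MI animals, against 8.72, 9.25 and 9.72 in Sham animals, a difference of 0.09 (95% interval -0.19 to 0.37).

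CDKN3, a phosphatase that acts on cyclin-dependent kinases, had 7.14, 7.93 and 8.53 in MI animals, against 7.21, 7.76 and 8.29 in Sham animals. Its difference was 0.27 (SE 0.18, adjusted p = 0.432). CKS1B, a small kinase subunit that helps to degrade the inhibitor CDKN1B, had 7.85, 8.40 and 8.54 in MI animals, against 7.74, 8.18 and 8.51 in Sham animals, which gave a difference of 0.18 (SE 0.13, adjusted p = 0.453). For both genes the lowest MI animal was MI 7. The remaining 3 genes differed by 0.12 (CDKN2C, an inhibitor of the G1 kinases), 0.07 (CDKN1B, an inhibitor that holds cells out of S phase) and -0.05 (CDK2, a kinase of S phase entry).

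Among the replication genes 1 of 9 passed. MCM3 (Entrez 100154824), a subunit of the helicase that opens replication origins, had 4.47, 4.78 and 5.02 in MI animals, against 4.04, 4.38 and 4.69 in Sham animals. All 8 MI animals lay above the Sham mean and 5 of them above the highest Sham animal, although only 1 signal of the 16 exceeded 4.99. The difference was 0.35 (SE 0.10, adjusted p = 0.0329). It passed in 6 of the 16 fits that each left out 1 animal (MI 1, MI 7, MI 8, Sham 1, Sham 7 or Sham 8), and the adjusted p ran up to 0.0672 in the others.

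PCNA, the clamp that holds DNA polymerase on its template, had 7.97, 8.65 and 9.12 in MI animals, against 8.17, 8.55 and 8.86 in Sham animals. The groups overlapped and the difference was 0.08 (95% interval -0.22 to 0.38, adjusted p = 0.805), and 0.18 without MI 7. TYMS, thymidylate synthase, which makes the thymidine nucleotide, had 5.74, 6.61 and 7.13 in MI animals, against 5.72, 6.44 and 6.74 in Sham animals, which gave a difference of 0.33 (SE 0.19, adjusted p = 0.317). The widest spread of the replication genes was that of RRM2, the regulated subunit of ribonucleotide reductase, from 4.87 to 7.50 in MI animals, against 5.23 to 7.08 in Sham animals. Its difference of 0.36 had a 95% interval from -0.39 to 1.10, and without MI 7 it was 0.63 (0.03 to 1.22, adjusted p = 0.18). The difference was 0.14 for MCM2 (0.23 without MI 7), 0.11 for FEN1 (the nuclease that trims Okazaki fragments), 0.0017 for MCM5, -0.11 for RRM1 and -0.12 for MCM4.

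Of the mitotic regulators 1 of 14 passed in all 16 animals. CDC25C (Entrez 100144474), the phosphatase that activates CDK1 at the start of mitosis, had 4.38, 4.73 and 4.93 in MI animals, against 4.23, 4.38 and 4.50 in Sham animals. Of the MI animals 7 lay above the highest Sham animal, only MI 5 lay within the Sham range, and no signal of either group exceeded 4.99. The difference was 0.33 (SE 0.06, adjusted p = 0.00342), and it passed in 16 of 16 fits that left out 1 animal, with adjusted p up to 0.00895. Over the 28 alternative settings that tested it, its adjusted p ran from 0.00259 to 0.338, the highest being that within set B. Within set A it did not pass either (difference 0.25, adjusted p = 0.0662). Its highest signals were those of MI 7 (4.93) and MI 8 (4.92), both arrays of set B. When only genes with a group mean above 4.99 were tested, 0 of 33 members passed, against 4.0% of 5925 genes, and 3 had an unadjusted p under 0.05, against 14.5%. These counts use the chosen probe sets. Of 8 further probe sets of members in that fit 1 passed, against 5.94% of all 16731 probe sets.

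CCNB1 (Entrez 397662), cyclin B1, the partner of CDK1, had 5.44, 7.57 and 7.95 in MI animals, against 5.76, 6.87 and 7.59 in Sham animals. The lowest of all 16 signals was that of MI 7, while the next MI animal stood at 7.35. The difference was 0.57 (SE 0.32, adjusted p = 0.315). AURKA (Entrez 574063), the kinase of the centrosome and spindle poles, had 5.13, 6.10 and 6.27 in MI animals, against 5.19, 5.47 and 5.98 in Sham animals. MI 7 was again lowest of all, and the other 7 MI animals, from 6.04 upwards, were all above the highest Sham animal. The difference was 0.48 (SE 0.16, adjusted p = 0.0642).

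**Figure D2:**
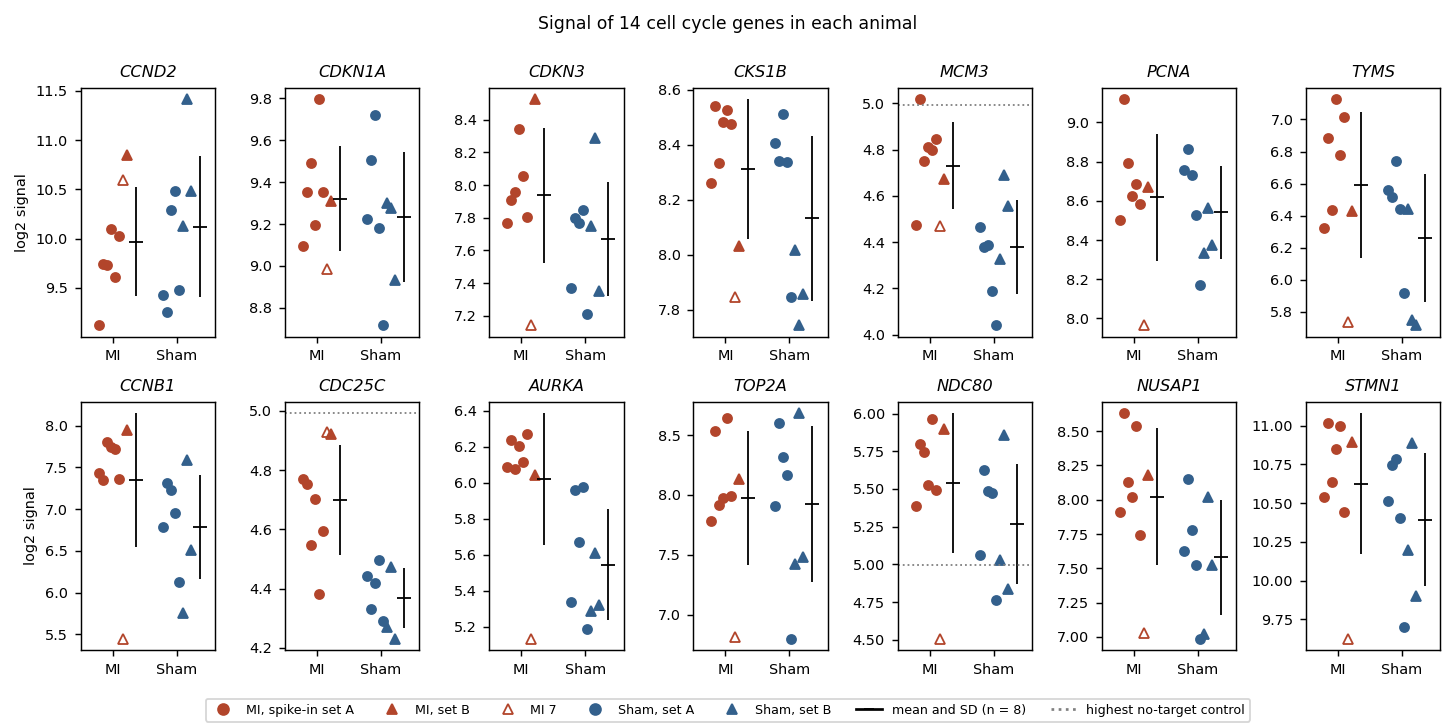
Log2 signal (y axis, a scale of its own for each gene) of 14 cell cycle genes in each MI animal (left of each panel) and each Sham animal (right). Circles are arrays of spike-in set A, triangles those of set B, the open triangle is MI 7, bars give mean and SD (n = 8), and the dotted line marks the highest no-target control (4.99); MI 7 is the lowest MI animal in 12 of the 14 panels, all but CCND2 and CDC25C.

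Leaving out MI 7 changed the calls, mostly among the mitotic regulators. In that fit 8 of the 36 genes passed, all higher in MI (22.2%), against 7.39% of all genes (4.15% as higher). At an unadjusted p under 0.05 the count was 16 of 36, against 20.0%. The 8 genes were MCM3 and 7 of the 14 mitotic regulators: CCNB1, AURKA, MAD2L1, BIRC5, PTTG1, CCNA2 and CDC25C. MAD2L1, BIRC5, PTTG1 and CCNA2 are described because of these values. CCNB1 then differed by 0.83 (SE 0.24, adjusted p = 0.0377) and AURKA by 0.60 (SE 0.12, adjusted p = 0.00557). MI 7 was the lowest MI animal for 25 of the 36 genes, against 19.8% of all genes. For these 25 genes its omission raised the MI mean in any case. Sham 5 and Sham 8, each among the lowest 4 animals for 75.0% of the 36 genes, were kept. The higher share called is thus tied to which animal was left out.

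MAD2L1, the checkpoint protein that restrains CDC20 until chromosomes are attached, had 7.44, 8.55 and 8.76 in MI animals, against 7.44, 8.00 and 8.33 in Sham animals. Its difference was 0.47 (SE 0.17, adjusted p = 0.105) in all animals and 0.60 (adjusted p = 0.015) without MI 7. BIRC5, survivin, a subunit of the chromosomal passenger complex, had 5.27, 6.50 and 6.72 in MI animals, against 5.47, 6.05 and 6.28 in Sham animals. Its difference was 0.36 (adjusted p = 0.219) in all animals and 0.51 (adjusted p = 0.0212) without MI 7. Above the highest Sham animal lay 5 MI animals for MAD2L1 and 6 for BIRC5, and MI 7 lay below the lowest Sham animal for both.

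PTTG1, securin, which keeps sister chromatids together until anaphase, had 7.13, 8.43 and 8.80 in MI animals, against 6.99, 7.77 and 8.37 in Sham animals. Its difference was 0.59 (adjusted p = 0.148) in all animals and 0.75 (adjusted p = 0.0378) without MI 7. CCNA2, cyclin A2, which acts in S phase and G2, had 4.22, 5.09 and 5.25 in MI animals, against 4.45, 4.77 and 4.99 in Sham animals. Its difference was 0.25 (adjusted p = 0.222) in all animals and 0.35 (adjusted p = 0.0241) without MI 7, and only 6 of the 16 animals exceeded 4.99. Above the highest Sham animal lay 5 MI animals for PTTG1 and 6 for CCNA2, and MI 7 was the lowest MI animal for both.

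With MI 7 left out and the spike-in set as a block, 7 of the 36 genes passed (19.4%), against 8.54% of all genes. These were the genes that passed without MI 7, except PTTG1 (adjusted p = 0.0536). Within set A alone (6 MI and 5 Sham animals) 4 genes passed, AURKA, CCNB1, MAD2L1 and MCM3, against 8.57% of all genes. Their differences there were 0.47, 0.60, 0.50 and 0.48. Within set B alone (2 MI and 3 Sham animals) 0 of the 36 genes passed (0.0% of all genes), 1 had an unadjusted p under 0.05 (9.27% of all genes), and the median difference was 0.05, but 2 animals against 3 leave little precision. The fit in set A held group and sex, that in set B group alone. In set B, MI 7, MI 8 and Sham 7 were labelled female and Sham 6 and Sham 8 male. The group difference there is thus mixed with labelled sex, and MI 7 is 1 of the 2 MI animals.

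The other 6 mitotic regulators with a positive difference ran from 0.0014 (BUB3, a checkpoint protein) to 0.40 (CKS2, a kinase subunit related to CKS1B, adjusted p = 0.351). Between them stood CCNB2 at 0.21, AURKB, the kinase of the chromosomal passenger complex, at 0.15, PLK1, the Polo-like kinase, at 0.13 and CDC20, the activator of the anaphase-promoting complex, at 0.05. CDC25B, a phosphatase that starts the activation of CDK1, had the only negative difference of the role, -0.07. None of these passed with or without MI 7.

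None of the 6 genes for kinetochore, spindle and chromosomes passed, with or without MI 7. TOP2A, the topoisomerase that untangles chromosomes, had 6.81, 7.98 and 8.65 in MI animals, against 6.80, 8.04 and 8.69 in Sham animals. The ranges were almost the same, and the difference was 0.05 with a 95% interval from -0.56 to 0.66 (0.22 without MI 7). NUSAP1, a spindle microtubule protein, had 7.03, 8.08 and 8.63 in MI animals, against 6.98, 7.58 and 8.15 in Sham animals, which gave a difference of 0.44 (SE 0.22, adjusted p = 0.244). Of the MI animals 3 lay above the highest Sham animal.

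NDC80, the kinetochore protein that binds microtubules, had 4.51, 5.64 and 5.96 in MI animals, against 4.77, 5.27 and 5.86 in Sham animals, which gave a difference of 0.27 (SE 0.20, adjusted p = 0.477). STMN1, stathmin, which destabilises microtubules, had 9.62, 10.7 and 11.0 in MI animals, against 9.70, 10.5 and 10.9 in Sham animals, which gave a difference of 0.23 (SE 0.21, adjusted p = 0.567). The groups overlapped for both genes. CENPF, a kinetochore protein of G2 and mitosis, differed by 0.16 and HMGB2, a chromatin protein, by 0.06. Without MI 7 the differences were 0.42 (NDC80), 0.38 (STMN1), 0.25 (CENPF) and 0.12 (HMGB2).

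The spread between animals of 1 group was wide and shared among genes. Each gene's deviation from its own mean over the 16 animals was averaged over the 36 genes. This mean deviation ran from -0.43 (MI 7) to 0.29 (MI 8), with a median of 0.15, in MI animals, against -0.46 (Sham 5) to 0.20 (Sham 7), with a median of -0.06, in Sham animals. MI 7 was the lowest MI animal for 25 of the 36 genes, against 19.8% of all genes on the array. Sham 7 was the highest Sham animal for 19 of the 36, against 17.9% of all genes.

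Ranked over all 16 animals, MI 7 was among the lowest 4 for 66.7% of the 36 genes and 31.7% of all genes. The corresponding shares were 75.0% and 24.05% for Sham 5, 75.0% and 29.0% for Sham 8, and 52.8% and 22.5% for Sham 6. MI 2 was among the highest 4 for 66.7% of the 36 genes and 24.9% of all genes, MI 5 for 66.7% and 26.8%, MI 8 for 52.8% and 29.1%, and Sham 7 for 41.7% and 29.5%. Low animals and high animals thus occurred in both groups. Set B held 3 of the low ones (MI 7, Sham 6 and Sham 8) and 2 of the high ones (MI 8 and Sham 7).

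The swing was widest for kinetochore, spindle and chromosome genes. Their mean deviation ran from -0.76 (MI 7) to 0.57 (MI 5) in MI animals, against -0.72 (Sham 5) to 0.40 (Sham 7) in Sham animals. For mitotic regulators the MI animals other than MI 7 all lay above 0, from 0.07 to 0.33, against -0.45 to 0.19 in Sham animals. For G1 and S phase control the range was -0.16 to 0.27 in MI animals, against -0.31 to 0.21 in Sham animals.

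**Figure D3:**
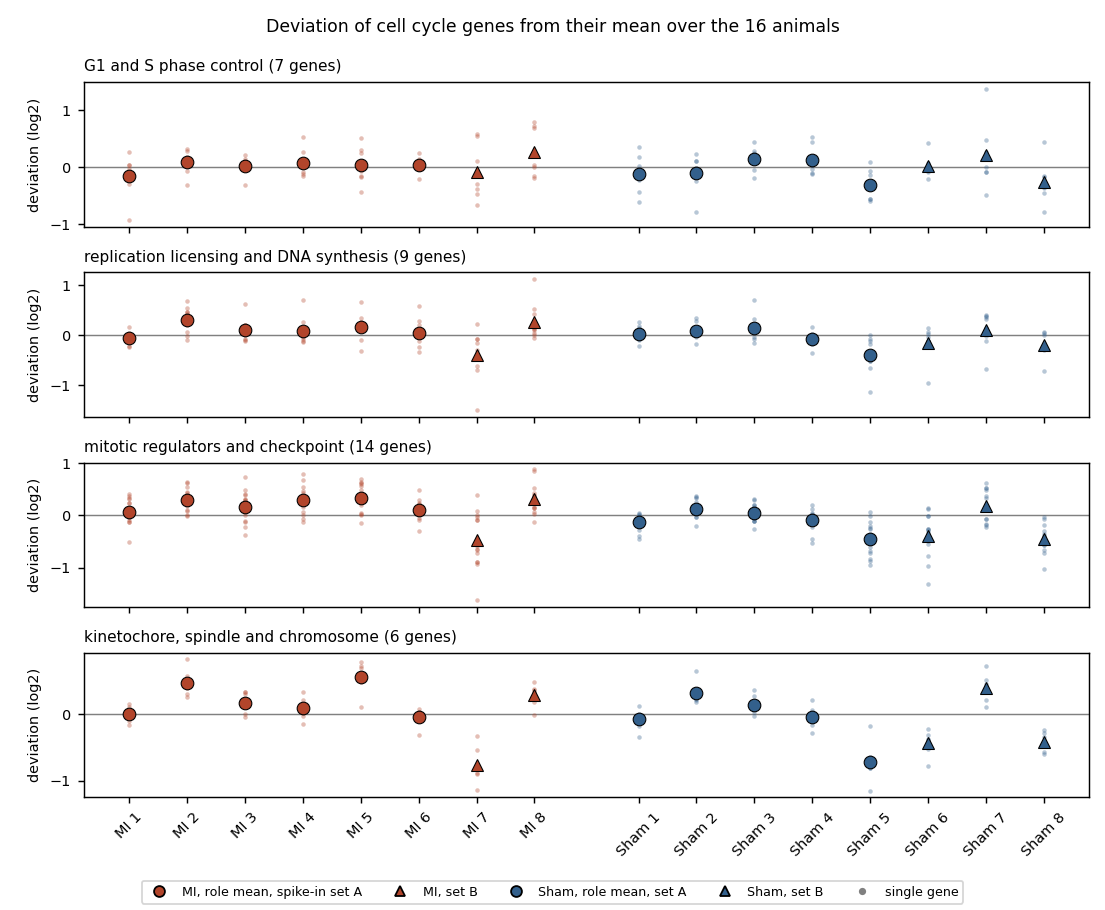
Deviation of each gene from its own mean over the 16 animals (y axis, log2 signal), by animal (x axis, MI left, Sham right), in 1 panel per role. Large symbols are means over the genes of the role, small dots are single genes, and triangles are arrays of spike-in set B; MI 7, Sham 5, Sham 6 and Sham 8 are low in the lower 2 panels and MI 2, MI 5 and Sham 7 are high in the lowest.

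Because MKI67 was not measured, TOP2A was taken as the gene to which the others were likened. Deviations from the mean of group and spike-in set were correlated over the 16 animals, so neither the groups nor the sets enter the value. MI 7 and MI 8 are the only MI arrays of set B, so their deviations mirror each other. The 5 most alike of the 6764 other genes were CKS2 (r = 0.962), CENPF (0.937), DLGAP5 (0.936), STMN1 (0.936) and NDC80 (0.921). The 36 genes include 4 of them, and DLGAP5, a spindle protein, belongs to the wider list below. The correlations describe these 16 arrays, whose animals also share tissue make-up and array quality.

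Over the other 35 cell cycle genes the median r with TOP2A was 0.741, and 19 of the 35 (54.3%) exceeded 0.7, against a median of -0.03 and 1.79% over all genes. By role the median was 0.921 for kinetochore, spindle and chromosomes, 0.804 for mitotic regulators, 0.673 for replication and 0.574 for G1 and S phase control. Without Sham 5 and Sham 7, the animals farthest from the median, the median over the 35 genes was 0.704, and within set A it was 0.724. Without MI 7 it was 0.722. CDKN1B ran the other way (r = -0.66), and BUB3 (-0.13), CDC25C (0.20) and MCM4 (0.25) had little relation to TOP2A. CDC25C, which passed between the groups, was thus among the genes least like TOP2A, and MCM3 had r = 0.705.

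Within each labelled sex the counts were small. In females 1 of 36 genes passed (CDC25C, difference 0.44, SE 0.09, adjusted p = 0.0167), against 2.1% of all genes, and without MI 7 none did (adjusted p of CDC25C 0.0508), against 1.29%. There 6 of the 36 had an unadjusted p under 0.05, against 11.0% of all genes. In males 0 of 36 passed, against 2.42% of all genes, and 8 had an unadjusted p under 0.05, against 16.6%. Without MI 7, which changes only the estimate of the spread in males, 1 gene passed in males (CCNA2, 0.48, adjusted p = 0.0427), against 2.66%.

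The median difference of the 36 genes was 0.07 in females and 0.23 in males, and 0.22 in females without MI 7. The difference between the sexes itself was tested with limma for each gene and passed for 0 of the 36 (0 also at an unadjusted p below 0.05, against 6.24% of all genes), as for 0 of 6765 genes (0.0%). For CCNB1 the MI minus Sham difference was 0.11 in females (0.65 without MI 7) and 1.02 in males, and the difference between these was -0.91 (95% interval -2.29 to 0.46). Between females and males over both groups 0 of 36 genes passed, against 0.0591% of all genes, and 1 had an unadjusted p under 0.05, against 3.25%.

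**Figure D4:**
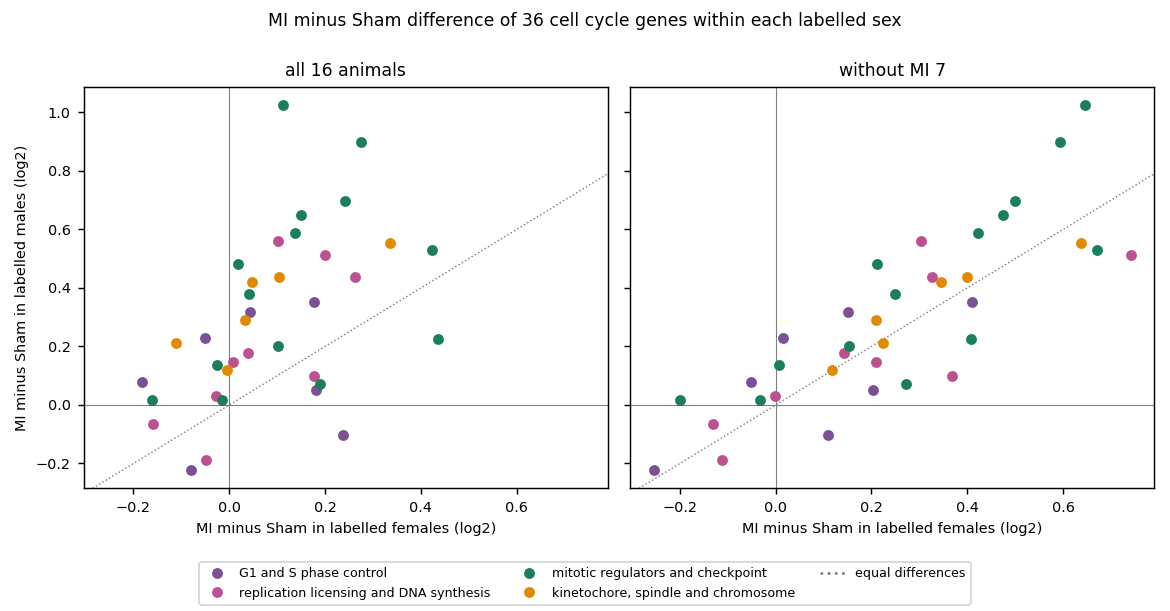
MI minus Sham difference (log2 signal) of the 36 cell cycle genes in animals labelled female (x axis) and labelled male (y axis), with all 16 animals (left) and without MI 7 (right). Points are genes coloured by role and the dotted line marks equal differences. With all animals 29 of the 36 points lie above the line, against 3166 of all 6765 genes. Without MI 7 there are 24 of 36, against 3092 of 6765. The median in females is 0.07 with MI 7 and 0.22 without it.

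Further probe sets, 13 in all, existed for 9 of the 36 genes, which can read other parts or forms of the transcript. Of these 4 passed, all higher in MI, against 11.0% of such further probe sets on the array. By sign 8 of the 13 were higher in MI and 5 lower. The further probe set of AURKA differed by 0.16 (adjusted p = 0.223), and by 0.19 without MI 7 (adjusted p = 0.147), so it passed in neither fit. Those of TYMS and FEN1 differed by -0.15 and -0.04, against 0.33 and 0.11 for the chosen probe sets. The further probe set of MCM4 had 4.78, 4.90 and 5.30 in MI animals, against 4.35, 4.51 and 4.69 in Sham animals. The groups did not overlap, its difference was 0.42 (adjusted p = 0.00413), and both group means lay below 4.99. The chosen probe set of MCM4 had a difference of -0.12 (adjusted p = 0.437), and the correlation between both over the 16 animals was -0.04, so they disagree.

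A further probe set of MCM2 had 5.86, 6.11 and 6.39 in MI animals, against 5.43, 5.56 and 6.12 in Sham animals. All 8 MI animals lay above the Sham mean, and the difference was 0.46 (SE 0.10, adjusted p = 0.00855), against 0.14 (adjusted p = 0.656) for the chosen probe set. Its mean over the 16 animals, 5.8606, was nearly that of the chosen one, 5.8648. Every signal of this further probe set exceeded 4.99, and it passed in 16 of 16 fits that left out 1 animal. The count of passing replication genes thus depends on a small gap in mean signal. Another probe set of MCM2, below 4.99 in both groups, differed by 0.10 (adjusted p = 0.355). The further probe set of NUSAP1 had 6.58, 7.07 and 7.37 in MI animals, against 6.04, 6.54 and 7.03 in Sham animals. Its difference of 0.53 (adjusted p = 0.04) was near the 0.44 of the chosen probe set, and it passed in 6 of 16 fits that left out 1 animal. A further probe set of CDKN1B, below 4.99 in both groups, differed by 0.26 (adjusted p = 0.0151), with a correlation of -0.21 to the chosen one. Without MI 7 the 4 differences were 0.46 (MCM4), 0.42 (MCM2), 0.59 (NUSAP1) and 0.27 (CDKN1B), and each passed.

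A wider list of 140 cell cycle genes, apart from the 59, had 62 measured. Of these 8 passed (6 higher and 2 lower in MI), against 7.63% of all genes, and 12 passed without MI 7, against 7.39%. Their median difference was 0.07, and by part of the cycle 2 of 21 replication genes, 4 of 15 genes of G1 and arrest and 2 of 26 mitosis genes passed. All 8 also passed without MI 7 (adjusted p from 0.00122 to 0.048).

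CDKN2B, an inhibitor of the G1 kinases, had 4.43, 4.69 and 4.94 in MI animals, against 4.00, 4.16 and 4.28 in Sham animals. The groups did not overlap, the difference was 0.52 (SE 0.07, adjusted p = 0.000447), and no signal exceeded 4.99. KIF20A, a kinesin of cytokinesis, had 6.002, 6.24 and 6.33 in MI animals, against 5.47, 5.65 and 6.18 in Sham animals. Its difference was 0.51 (SE 0.10, adjusted p = 0.00293), 0.50 without MI 7, and it passed in 16 of 16 fits that left out 1 animal. MELK, a kinase of proliferating cells, had 5.10, 5.81 and 6.28 in MI animals, against 4.47, 5.17 and 5.69 in Sham animals (difference 0.64, adjusted p = 0.0329). It passed in 6 of those 16 fits, with adjusted p up to 0.0667.

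POLE2, a subunit of DNA polymerase epsilon, rose by 0.42 (adjusted p = 0.00717) without overlap between the groups, and ORC3, a subunit of the origin recognition complex, by 0.42 (adjusted p = 0.0236). SKP2, which marks CDKN1B for degradation, rose by 0.27 (adjusted p = 0.00717). The signals of POLE2 and SKP2 had no group mean above 4.99. CCNH, the cyclin of the kinase that activates other cyclin-dependent kinases, fell by 0.28 (adjusted p = 0.0244), and CHEK2, a kinase of the DNA damage checkpoint, fell by 0.34 (adjusted p = 0.0266). ORC3, CCNH and CHEK2 passed in 15, 14 and 11 of the 16 fits that left out 1 animal.

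One array measure and some markers of other cells differed between the groups. The mean of the no-target controls was 3.80 ± 0.03 in MI and 3.73 ± 0.05 in Sham animals (SD, n = 8 each, exact permutation test, two-sided, p = 0.00684), a difference of 0.07. Genes with no group mean above 4.99 had a mean of 4.18 in both groups (difference 0.0049, exact permutation p = 0.462), and 20.1% of the 840 such genes passed, 11.3% as higher. The actin 3' minus 5' signal (exact permutation p = 0.394) and the poly-A minus hybridisation controls (exact permutation p = 0.325) did not pass. The part of the no-target shift in the results of MCM3, CDC25C and the other signals near the controls was not tested.

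All 9 measured cardiomyocyte markers exceeded 4.99, and none passed. Of 8 T cell markers CD3D, CD8B and CD247 were higher and CD4 lower in MI. Of 5 macrophage and monocyte markers CD14 was higher, and of 4 erythroid markers HBM and AHSP were higher. Among the other markers of these lists CD3E, CD2, CD8A, ITGAM and HBB had lower means in MI. CD3G, CD163, MRC1, AIF1 and ALAS2 had higher means, and none of these other markers passed. The means of CD4, 4.41 in MI and 4.66 in Sham animals, lay below 4.99. Of all genes 7.63% passed. The mean T cell marker signal ran from 5.34 to 6.05 in MI animals, against 5.51 to 6.13 in Sham animals, and that of macrophages and monocytes from 7.50 to 8.04 in MI, against 7.47 to 7.94 in Sham animals. The mean erythroid signal ran from 6.41 to 7.82 in MI animals, against 6.26 to 6.78 in Sham animals. MI 7 had the highest erythroid and the lowest T cell signal of the 16 animals. None of the 6 fibroblast, 7 endothelial, 4 smooth muscle, 3 atrial or 1 B cell markers passed. The part of any cell type in the cell cycle signals was not tested.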

How the data were processed

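Left ventricle RNA of 16 pigs was measured on Affymetrix porcine arrays, 1 per animal. The deposited values are taken as log2 because they ran from 2.87 to 14.9, and the median of the 16 array medians was 6.24. How the authors normalized and summarized them is "not given in the sources used here". No further scaling was done. Of 24123 probe sets, 124 controls were left out and 23999 tested; 10069 carried 1 symbol, 198 several and 13732 none. limma 3.58.1 (R 4.3.3) fitted 4 cells of group and sex, with Benjamini-Hochberg adjustment over the 23999 (two-sided, adjusted p under 0.05). The fit was tested on simulated arrays with known changes and independent noise. These held no spike-in sets, genes that move together or outlying animal, so that test does not cover such features. The number of arrays limits the precision.

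Genes were named by rule: each member passing in any of 5 contrasts, the 2 lowest p in each role, and TOP2A, CCNB1, PCNA, CCND2, CDKN1A and STMN1 in any case; of the wider list, those passing. The ranges of RRM2, MAD2L1, BIRC5, PTTG1, CCNA2 and the further probe sets were added after their values were seen. The members and lists were chosen with earlier results of these data known. All 36 symbols matched current RefSeq names. The labels' animal numbers did not pair animals. The 30 alternatives covered scaling, filters, model, spike-in sets and the omission of each animal.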

Additional observations from a re-analysis of the deposited data

Results flagged for a closer look

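In groups of 8 animals, a lowest or highest signal was singled out where its gap to the nearest animal, divided by the range of the group, exceeded Dixon's 95% critical value for 8 samples. Among the 22 genes named by rule, 6 of 44 groups met this, and chance alone gives about 1 in 20. In 5 of the 6 the animal was MI 7, lowest of the MI animals, in genes that moved together. MAD2L1, BIRC5, PTTG1 and CCNA2 were described because they passed without MI 7, so their 4 low values of MI 7 are tied to that choice and are not set against chance.

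For the mitotic regulators the ratio of gap to range was 0.8 for AURKA (MI 7 at 5.13, the next MI animal at 6.04), 0.761 for CCNB1 (5.44 and 7.35), 0.669 for PTTG1 (7.13 and 8.25), 0.615 for CCNA2 (4.22 and 4.86), 0.585 for BIRC5 (5.27 and 6.12) and 0.553 for MAD2L1 (7.44 and 8.17). For kinetochore, spindle and chromosome genes it was 0.604 for NDC80 (4.51 and 5.39), 0.589 for STMN1 (9.62 and 10.4) and 0.529 for TOP2A (6.81 and 7.78). For SKP2 of the wider list, Sham 2 was the highest Sham animal (3.77, the next at 3.61, ratio 0.578), at signals below the no-target limit.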

How the results depend on the processing

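The count of members passing between MI and Sham was 2. It stayed at 2 with group alone, quantile normalization, median centring, an offset of 32, an intensity trend, probe sets averaged per gene, and a block for the spike-in set. With the block for the spike-in set 9.59% of all genes passed. The count was 0 with only probe sets above the no-target controls (4.0% of all genes there) and 0 with the 16000 brightest. It was 5 with array weights and 1 with the replicate block. In set A it was 4 (8.57% of all genes), in set B 0 (0.0%), and 7 without MI 7 with the set as a block (8.54%). Both filters leave MCM3 and CDC25C untested; other causes were not tested. Leaving out each animal gave 1 to 8 (8 without MI 7), 0 to 1 in females (0 without MI 7 or Sham 5) and 0 to 1 in males (1 without MI 7). The counts between sexes and for the interaction stayed at 0. The 8 wider-list genes became 5 above the no-target controls, 2 among the brightest, 0 in set B, and 5 to 12 with each animal left out (5 without MI 3, 12 without MI 7). Without MI 7 the share of all genes was 7.39%. Where no share of all genes is given for a setting, its counts cannot be set against a background.

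Set B was fitted without sex, and MI 7 was 1 of its 2 MI animals. There 13 of the 36 members changed sign, none of which passed in all animals, although BIRC5 passed without MI 7. Of the 18 members described by their ranges under the naming rule or for passing without MI 7, these were 0.045 (CCND2), -0.024 (CDKN1A), -0.10 (PCNA), -0.39 (TOP2A), -0.041 (NDC80), -0.070 (STMN1) and -0.038 (BIRC5); the other 6 were FEN1, CCNB2, CDC25B, BUB3, CENPF and HMGB2. With each animal left out, CCND2 ran from -0.29 to 0.059, PCNA from -0.015 to 0.18 and TOP2A from -0.14 to 0.22. The replicate block is not a pairing by design: animals of equal number correlated at -0.07 to 0.46, 4 of 8 over 0.1, and 1 number was its own best partner. Signals near the no-target controls and 8 animals per group limit what could be detected.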
